A study of Homo sapiens with 8 samples.

Results

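The HOX cluster genes encode homeodomain transcription factors and lie in 4 clusters, HOXA, HOXB, HOXC and HOXD. The genes described here are every entry of the deposited count table named HOXA, HOXB, HOXC or HOXD followed by a number, which gave 39 of the 16829 genes in the table, with 11 in HOXA, 10 in HOXB, 9 in HOXC and 9 in HOXD. The choice used names only, no measured value. In GENCODE 29 on GRCh38 the HOXA genes lie on the minus strand of chromosome 7, and the HOXB genes span chr17:48528526-48729178, also on the minus strand. The HOXC genes span chr12:53938765-54056030 and the HOXD genes chr2:176092891-176190907, both on the plus strand.

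HOX proteins bind AT-rich DNA, often together with cofactors of the PBX and MEIS families, and set the identity of body segments along the head-to-tail axis. Within a cluster the genes are transcribed in the same direction and numbered by paralog group, and in the embryo low-numbered genes are active further forward and high-numbered ones further back. Polycomb complexes keep HOX genes silent, Trithorax and MLL complexes keep them active, and retinoic acid induces low-numbered members. The adult colon keeps a HOX pattern of its hindgut origin, and CDX proteins, made in the intestinal epithelium, are known to act on HOX genes.

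The study held 8 RNA-seq libraries in 4 groups of 2. SW480, a line from a human colon adenocarcinoma, carried a hairpin against CYP1B1 (SW480 shCYP1B1) or a non-targeting hairpin (SW480 shNT). RKO, a poorly differentiated human colon carcinoma line, overexpressed CYP1B1 (RKO CYP1B1) or was its control (RKO control). CYP1B1 is a cytochrome P450 that oxidises steroids, retinoids and polycyclic aromatic hydrocarbons. All cells received lentivirus, per the labels, and the knockdown labels name 1 hairpin, so that effects off its target cannot be told apart. The labels do not say whether the replicates were grown apart. The p-values thus cover the spread between libraries alone, and that spread may be technical.

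Each library held 31550173 to 34921085 counts. CYP1B1 followed the labels. It had 12 and 10 counts in SW480 shCYP1B1 libraries, against 50 and 76 in SW480 shNT libraries (log2 fold change -2.44 ± 0.31, SE), and 15238 and 17360 counts in RKO CYP1B1 libraries, against 22 and 24 in RKO control libraries (9.42 ± 0.18). The RKO CYP1B1 libraries differed most from each other, with 62 of 10272 genes more than 2-fold apart, against 3 to 6 genes in the other groups. The labels call the source colon tissue. Of 12 colorectal epithelial markers, 10 were in the table, and their summed FPKM was 2697 to 3122 in SW480 libraries and 158 to 179 in RKO libraries. KRT20, CDX1 and LGALS4 were listed at 0 in every RKO library, and CDX1 was listed at 0 in both SW480 shNT libraries too.

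The table of RNA counts holds no promoter readout, so the promoters are shown for the genes around which the results turn. HOXD13 and HOXD11 were read in SW480 and hardly or not at all in RKO. HOXD4 and HOXD3 were far lower in SW480 than in RKO. HOXA13 and HOXA7 moved in opposite directions in SW480 under the CYP1B1 hairpin. They were chosen after the values were seen. Each is 300 bases of RefSeq sequence on GRCh38.p14, 250 before to 50 after the annotated start, written 5′ to 3′ on the gene's strand. Capitals mark TTTAT, the core of the CDX motif, or TGATNNAT, the shared PBX and HOX motif, on either strand, and adjoining matches run together.
HOXD13: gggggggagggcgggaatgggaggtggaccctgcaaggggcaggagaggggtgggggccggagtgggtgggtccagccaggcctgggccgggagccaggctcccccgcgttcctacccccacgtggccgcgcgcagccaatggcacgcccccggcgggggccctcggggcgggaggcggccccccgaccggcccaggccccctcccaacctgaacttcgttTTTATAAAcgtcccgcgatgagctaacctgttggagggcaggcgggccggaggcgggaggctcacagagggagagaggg
HOXD11: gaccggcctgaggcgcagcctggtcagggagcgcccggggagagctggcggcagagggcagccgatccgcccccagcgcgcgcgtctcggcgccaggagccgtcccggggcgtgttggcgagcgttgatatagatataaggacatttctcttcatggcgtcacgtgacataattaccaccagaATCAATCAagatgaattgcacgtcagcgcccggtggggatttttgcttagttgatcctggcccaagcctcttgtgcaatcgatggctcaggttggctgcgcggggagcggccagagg
HOXD4: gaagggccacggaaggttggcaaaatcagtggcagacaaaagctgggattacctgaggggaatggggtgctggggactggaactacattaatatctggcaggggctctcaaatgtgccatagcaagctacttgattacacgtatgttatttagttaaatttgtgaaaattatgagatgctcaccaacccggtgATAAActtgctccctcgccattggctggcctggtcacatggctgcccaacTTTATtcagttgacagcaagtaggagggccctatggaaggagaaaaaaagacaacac
HOXD3: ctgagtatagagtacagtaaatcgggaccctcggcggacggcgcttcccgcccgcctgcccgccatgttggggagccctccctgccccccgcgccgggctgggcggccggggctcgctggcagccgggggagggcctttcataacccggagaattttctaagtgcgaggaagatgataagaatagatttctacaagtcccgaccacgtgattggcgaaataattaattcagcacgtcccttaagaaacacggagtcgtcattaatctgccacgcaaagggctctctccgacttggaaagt
HOXA13: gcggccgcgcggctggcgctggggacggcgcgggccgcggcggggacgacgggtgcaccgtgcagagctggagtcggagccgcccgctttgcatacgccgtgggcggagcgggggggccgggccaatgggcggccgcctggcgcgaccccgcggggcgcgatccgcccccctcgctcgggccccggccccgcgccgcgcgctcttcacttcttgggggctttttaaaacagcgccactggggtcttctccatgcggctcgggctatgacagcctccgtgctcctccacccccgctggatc
HOXA7: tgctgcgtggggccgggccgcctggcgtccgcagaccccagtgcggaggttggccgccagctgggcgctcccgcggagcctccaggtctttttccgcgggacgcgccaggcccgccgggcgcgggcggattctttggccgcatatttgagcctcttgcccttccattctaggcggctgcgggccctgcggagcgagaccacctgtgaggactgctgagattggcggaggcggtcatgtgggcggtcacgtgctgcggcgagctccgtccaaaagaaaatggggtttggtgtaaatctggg

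These windows lie at chr2:176092471-176092770 (HOXD13), chr2:176107030-176107329 (HOXD11), chr2:176151300-176151599 (HOXD4) and chr2:176157057-176157356 (HOXD3), all on the plus strand, and at chr7:27200042-27200341 (HOXA13) and chr7:27156626-27156925 (HOXA7), on the minus strand. The HOXD4 window held 4 CpG dinucleotides, while the other windows held 24 in HOXD13, 27 in HOXD11, 25 in HOXD3, 44 in HOXA13 and 31 in HOXA7. The median over all 35116 RefSeq promoters of that length was 14. The TTTAT pentamer, 2 overlapping matches on opposite strands in HOXD13 and 2 separate ones in HOXD4, is in 34.9% of all such promoters. The HOXD11 window held 1 TGATNNAT match, which 7.40% of all promoters hold. Such matches describe the letters only.

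The HOX clusters were read at different levels, and all 4 were higher in SW480 than in RKO. Levels are given as the deposited FPKM, counts scaled to gene length and to the library total, so that a comparison between genes rests on the length the authors used. That length, as the values imply it, was over 1.5 times the exon bases of GENCODE 29 for 5 of the 39 genes and under 0.7 times for 7. HOXB8 (4130 against 2051 bases), HOXD3 (5611 against 3548), HOXD4 (5144 against 1464) and HOXD13 (6442 against 2240) were among the longer ones, and HOXB4 (2002 against 3757) was among the shorter ones. The HOXB cluster summed to 316 ± 1.53 FPKM in SW480 shCYP1B1, 239 ± 5.95 in SW480 shNT, 98.8 ± 0.49 in RKO CYP1B1 and 106 ± 2.05 in RKO control (SD, n = 2 for each). HOXA summed to 148 ± 0.102, 146 ± 0.057, 96.6 ± 4.23 and 92.4 ± 1.69 FPKM in the same groups, and HOXC to 72.3 ± 2.81, 66.7 ± 3.87, 32.7 ± 0.62 and 32.8 ± 0.148 FPKM. HOXD was the lowest cluster in every library, with sums of 19.2 ± 0.74 FPKM in SW480 shCYP1B1, 15.6 ± 0.51 in SW480 shNT, 10.5 ± 0.91 in RKO CYP1B1 and 10.3 ± 0.10 in RKO control. The SW480 and RKO libraries did not overlap in any of the 4 sums. Per GENCODE length the HOXD gap was narrower, with sums of 17.8 in SW480 shCYP1B1, 15.9 in SW480 shNT, 13.9 in RKO CYP1B1 and 14.6 in RKO control. In bulk libraries, fewer cells that express a gene and less of its RNA per cell cannot be told apart. With 2 libraries a group, an exact permutation test cannot give a p below 0.333, so sums were not tested.

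**Figure D1:**
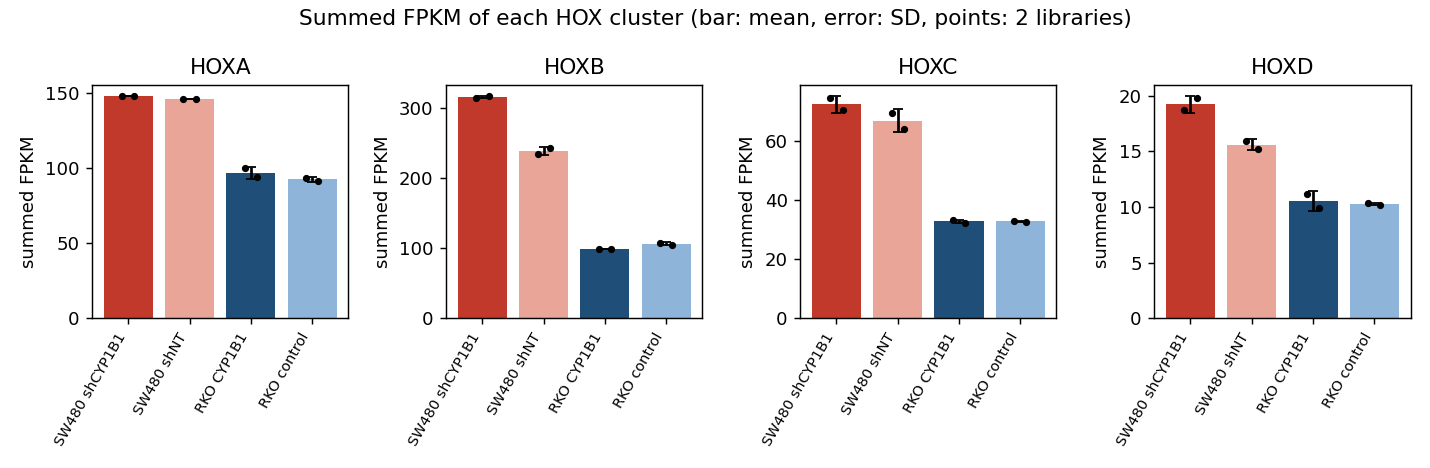
Summed FPKM of the HOXA, HOXB, HOXC and HOXD genes in each group. Bars show the mean of 2 libraries, error bars the SD and points the libraries, on axes that start at 0 and differ between panels. HOXB reached 316 FPKM in SW480 shCYP1B1 and 106 FPKM in RKO control.

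Few genes made up most of each sum. HOXA9, a gene whose product drives self-renewal in many acute leukaemias, was the highest HOXA member in every group, at 71.5 ± 1.32 FPKM in SW480 shCYP1B1, 48.2 ± 1.02 in SW480 shNT, 44.1 ± 5.07 in RKO CYP1B1 and 47.5 ± 0.767 in RKO control. It held 48.4% of the HOXA sum in SW480 shCYP1B1 and 51.4% in RKO control. HOXC10, which in mouse takes part in specifying the lumbar spinal cord, was the highest HOXC member in every group. By deposited FPKM the highest HOXB member was HOXB6 in SW480 shCYP1B1, HOXB7 in SW480 shNT and HOXB9 in both RKO groups, and in HOXD it was HOXD10 in SW480 shCYP1B1 and HOXD9 in the other groups. That order depended on length. Per GENCODE length HOXB8 came first in HOXB in both SW480 groups (89.4 in SW480 shCYP1B1, with HOXB6 at 76.1, and 68.4 in SW480 shNT, with HOXB7 at 44.2). In HOXD, HOXD9 came first in SW480 shCYP1B1 (4.20) and HOXD4 in RKO control (5.86). HOXA9, HOXC10 and, in RKO, HOXB9 stayed first in their clusters. Members at 1 FPKM or more in both libraries numbered 32 in SW480 shCYP1B1, 31 in SW480 shNT, 27 in RKO CYP1B1 and 28 in RKO control.

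**Figure D2:**
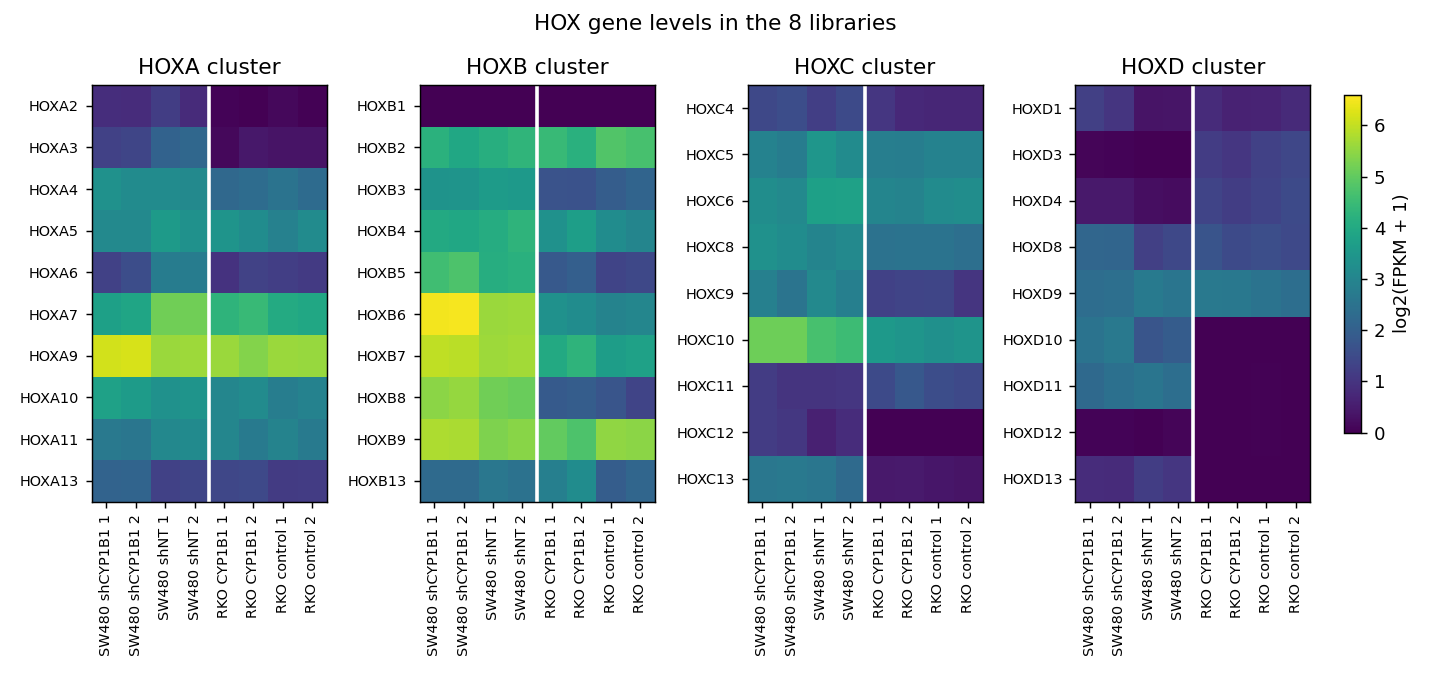
Level of each of 38 HOX genes, as log2(FPKM + 1), in each of the 8 libraries, with SW480 libraries left of the white line and RKO libraries right of it. HOXB6 is brightest in SW480 shCYP1B1 (87.9 and 90.5 FPKM), while HOXB1 is dark throughout and HOXD10 to HOXD13 are dark in RKO.

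The line comparison set SW480 shNT against RKO control. The lines carried different vectors, so line and vector cannot be told apart. A gene was called where its adjusted p was under 0.05 in edgeR's quasi-likelihood test over the 14157 genes with enough counts. Of the 39 HOX genes, 37 were tested, and HOXB1 and HOXD12 were not. HOXB1, a hindbrain gene, had 1 count in 1 SW480 shCYP1B1 library, 1 in 1 SW480 shNT library and 0 in the rest. HOXD12 had 4 and 4 counts in SW480 shCYP1B1, 1 and 6 in SW480 shNT, 1 and 0 in RKO CYP1B1 and 2 and 0 in RKO control. Of the 37 tested, 27 were higher and 5 lower in SW480 shNT, where 41.2% of all genes tested were higher and 35.6% lower. HOXA2, HOXC12, HOXD10, HOXD11 and HOXD13 passed the count filter only through SW480 and so had to differ. Of the 32 that passed in each line alone, 22 were higher and 5 lower. HOXD3, 1 of the 5 lower, passed in SW480 only through SW480 shCYP1B1 (14 and 10 counts). With 0 and 3 counts in SW480 shNT, it too had to differ here. By cluster, the higher and lower genes were 8 and 0 of 10 in HOXA, 7 and 1 of 9 in HOXB, 7 and 1 of 8 in HOXC and 0 and 3 of 5 in HOXD. The counts of 0 were also 0 at an unadjusted p under 0.05 and with DESeq2 and limma. The median log2 fold change over these 32 genes was 0.69, against 0.078 over all genes tested. The values over all genes also take in genes that passed the filter through 1 line only, so the sets are not filtered alike.

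In HOXB, the middle members differed most between the lines. HOXB8, whose mouse counterpart acts in myeloid progenitors, had 34.9 and 33.1 FPKM in SW480 shNT libraries, against 2.33 and 1.57 in RKO control libraries (log2 fold change 4.17 ± 0.15, SE, adjusted p = 1.97e-10). HOXB5 had 16.1 and 17.4 FPKM in SW480 shNT, against 1.55 and 1.68 in RKO control (3.42 ± 0.15). HOXB6 had 47.7 and 48.3 FPKM in SW480 shNT, against 6.73 and 7.21 in RKO control (2.83 ± 0.08, adjusted p = 3.22e-11, the smallest of any HOX gene). For each of the 3 genes the SW480 libraries stood above the RKO libraries without overlap. Such statements, here and below, are about genes named because they were called, so they add no support to the call. The share of all genes without overlap was not computed. HOXB7, often raised in breast cancers, differed by 2.06 ± 0.11 and HOXB3 by 1.88 ± 0.09. At the ends of the cluster the lines were closer. HOXB9 had 38.8 and 41.8 FPKM in SW480 shNT, against 44.5 and 42.9 in RKO control, and was not called (adjusted p = 0.469). HOXB2 ran the other way, with 16.5 and 18.9 FPKM in SW480 shNT, against 26.8 and 24.7 in RKO control (-0.50 ± 0.13, adjusted p = 0.00416). HOXB4 (1.21 ± 0.15) and HOXB13 (0.66 ± 0.17) were higher in SW480 shNT, and the HOXB13 value became -0.092 when both groups of each line were averaged (adjusted p = 0.485).

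In HOXA, HOXA3, HOXA6 and HOXA7 were among the members with wider gaps. HOXA3 differed by 3.69 ± 0.37 (SE) and HOXA6 by 2.24 ± 0.35, which became 1.40 when both groups of each line were averaged (adjusted p = 2.44e-04). HOXA7 had 35.07 and 35.03 FPKM in SW480 shNT, against 15.3 and 14.3 in RKO control (1.29 ± 0.10, adjusted p = 2.44e-07), and averaging both groups of each line gave 0.38 (adjusted p = 2.97e-04). HOXA9 had 47.5 and 48.9 FPKM in SW480 shNT, against 48.1 and 47.0 in RKO control, and was not called (adjusted p = 0.489). HOXA13, the gene of hand-foot-genital syndrome and of the embryonic hindgut, was not called either (1.42 and 1.59 FPKM in SW480 shNT, 1.21 and 1.26 in RKO control, adjusted p = 0.0816). HOXA4, HOXA5, HOXA10 and HOXA11 differed by 0.37 to 0.91. HOXA5 lost its call without RKO control replicate 1 (adjusted p = 0.108) or SW480 shNT replicate 1 (0.127). HOXA11 lost its call without SW480 shNT replicate 1 (0.103), SW480 shNT replicate 2 (0.158) or RKO control replicate 2, which also moved its log2 fold change of 0.37 to 0.23 (0.289). It was not called either by limma on log2(FPKM + 0.1) (0.0700), with library size scaling (0.0742) or with no count filter (0.0530). Averaged over both groups of each line, HOXA5 (0.18, adjusted p = 0.161) and HOXA11 (0.079, adjusted p = 0.518) were not called.

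Of the 8 HOXC members that passed the count filter in each line alone, 7 were higher and 1 was lower in SW480 shNT, and HOXC12 passed through SW480 alone. HOXC13, which controls hair and nail keratins, had 4.98 and 3.84 FPKM in SW480 shNT libraries, against 0.323 and 0.270 in RKO control libraries (3.94 ± 0.26, adjusted p = 5.65e-08). HOXC10 had 24.7 and 21.9 FPKM in SW480 shNT, against 8.87 and 9.67 in RKO control (1.37 ± 0.10, adjusted p = 1.73e-07). HOXC12 had 59 and 89 counts in SW480 shNT libraries, against 1 and 0 in RKO control libraries, a ratio of 142 with a counting interval of 25.1 to 5641 (95%, exact). HOXC9, HOXC4, HOXC8, HOXC6 and HOXC5 differed by 0.50 to 2.43. HOXC11 was lower in SW480 shNT (0.975 and 1.06 FPKM, against 1.94 and 1.75 in RKO control, -0.81 ± 0.25). Its call was lost without RKO control replicate 1 (adjusted p = 0.0616) or SW480 shNT replicate 1 (0.0665). HOXC5 lost its call without RKO control replicate 2 (0.0671) or SW480 shNT replicate 1, which moved its log2 fold change of 0.50 to 0.32 (0.163). Averaging both groups of each line also gave 0.32 (0.0239).

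HOXD split along the cluster. HOXD10, HOXD11 and HOXD13, at the high-numbered end, were read in SW480 and hardly or not at all in RKO, HOXD12 was hardly read in either line, and HOXD3 and HOXD4 were read in RKO and little in SW480. HOXD13, mutated in synpolydactyly, had 287 and 236 counts in SW480 shNT libraries (1.28 and 1.06 FPKM) and 0 in all 4 RKO libraries, so it was at least 167-fold higher in SW480 shNT, with the RKO control pair set at a floor of 3 counts. HOXD11, which patterns the forelimb in mouse, had 293 and 251 counts in SW480 shNT, against 1 and 0 in RKO control, a ratio of 521 (95% counting interval 93.2 to 20635). HOXD10 had 147 and 171 counts in SW480 shNT, against 0 and 1 in RKO control, a ratio of 305 (54.3 to 12078). HOXD3 ran the other way, with 0 and 3 counts in SW480 shNT, against 254 and 305 in RKO control, a ratio of 0.00514 (0.00106 to 0.0151). HOXD4 had 0.184 and 0.163 FPKM in SW480 shNT, against 1.53 and 1.81 in RKO control (-3.21 ± 0.26, adjusted p = 3.97e-07).

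Between these ends the lines met. HOXD9 had 5.59 and 4.95 FPKM in SW480 shNT libraries, against 4.74 and 4.25 in RKO control libraries (adjusted p = 0.157), and HOXD8 had 1.36 and 1.68 in SW480 shNT, against 2.02 and 1.74 in RKO control (adjusted p = 0.397). Summed, HOXD10 to HOXD13 had 8.36 ± 0.292 FPKM in SW480 shNT and 0.0302 ± 0.0187 in RKO control, and HOXD1, HOXD3 and HOXD4 had 0.463 ± 0.00902 in SW480 shNT and 3.86 ± 0.461 in RKO control (SD, n = 2 for each). HOXD1 was lower in SW480 shNT (-1.16 ± 0.47). That call was lost without SW480 shNT replicate 1 or 2 (adjusted p = 0.107 and 0.0902), RKO control replicate 2 (0.130) or either SW480 shCYP1B1 replicate (0.0564 and 0.0521), and with DESeq2 (0.0524). Averaged over both groups of each line, HOXD1 differed by -0.10 (adjusted p = 0.770). Reads of neighbouring genes bear on this end, since 80.5% of the exon bases of HOXD4 and 62.2% of those of HOXD3 also belong to another gene on the same strand in GENCODE 29, AC009336.2. The part of shared reads in these counts was not tested.

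**Figure D3:**
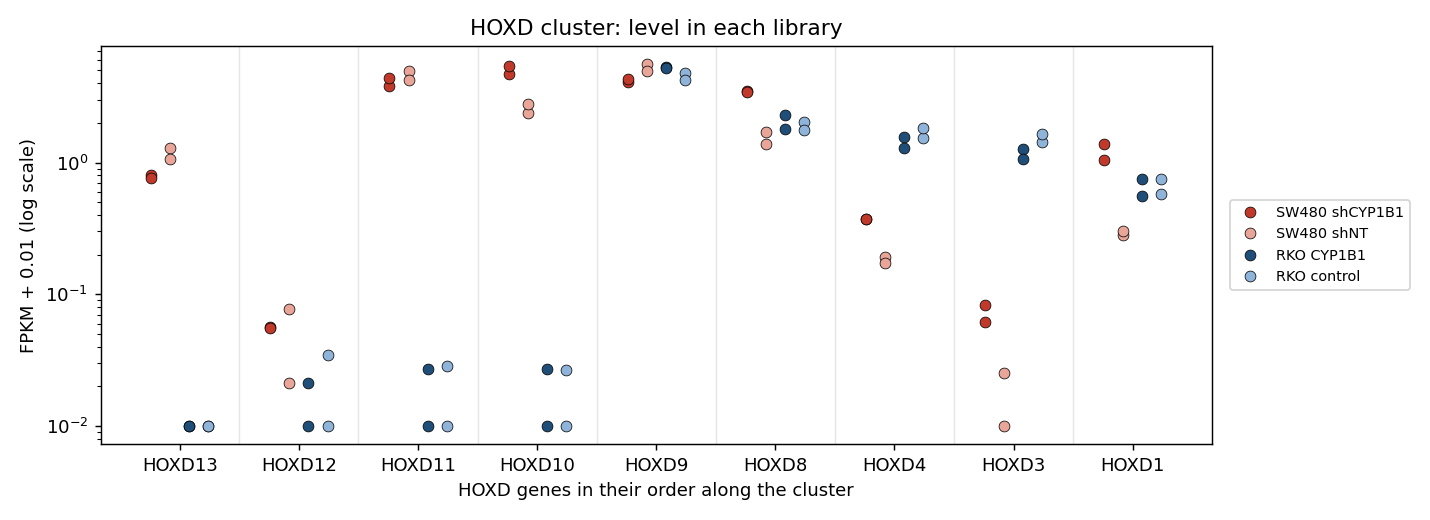
FPKM + 0.01 on a log axis for the HOXD genes in cluster order, from HOXD13 to HOXD1, with 1 point per library. HOXD10, HOXD11 and HOXD13 lie near the axis floor in RKO, and HOXD3 and HOXD4 lie lower in SW480 than in RKO.

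**Figure D4:**
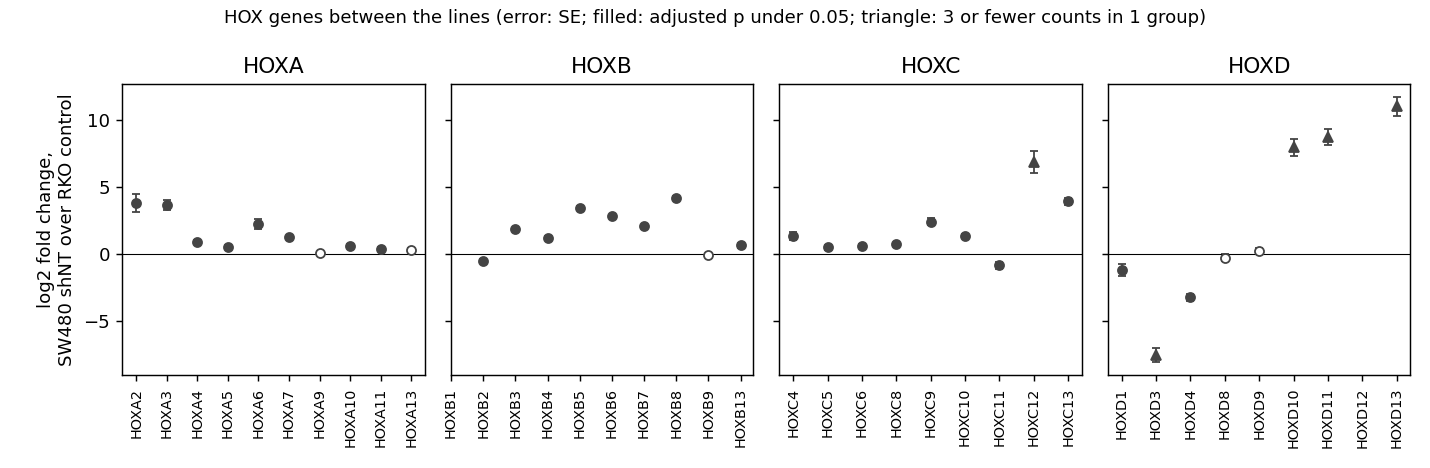
Fitted log2 fold change of SW480 shNT over RKO control for 36 of the HOX genes tested, with SE as error bars. Filled symbols passed an adjusted p of 0.05, and triangles mark genes with 3 or fewer counts in 1 group, whose fitted value depends on the model. HOXB9 and HOXA9 lie near 0, HOXB8 reaches 4.17, and HOXD4 lies at -3.21.

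Under the CYP1B1 hairpin in SW480, 15 of the 37 HOX genes tested rose and 6 fell against shNT, where 25.3% of all genes tested rose and 25.3% fell. The shares of HOX genes were 40.5% and 16.2%. The HOXB and HOXD genes that were called all rose, 5 of 9 in HOXB and 5 of 8 in HOXD, with median log2 fold changes of 0.33 and 1.06 over the tested genes of each cluster. In HOXA 4 of 11 rose and 4 fell, and in HOXC 1 of 9 rose and 2 fell. The median over all genes tested was -0.0037. Neither edgeR at an unadjusted p under 0.05 nor DESeq2 gave a HOXB or HOXD gene that fell, while limma on log2(FPKM + 1) or log2(FPKM + 0.1) called 2 lower, HOXD9 and HOXD13. The summed FPKM of HOXA was 148 in SW480 shCYP1B1 and 146 in SW480 shNT.

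The HOXA genes changed in both directions, and neighbours could differ. HOXA7 fell to 12.5 and 13.8 FPKM in SW480 shCYP1B1 libraries, against 35.07 and 35.03 in SW480 shNT libraries (log2 fold change -1.37 ± 0.10, adjusted p = 1.38e-06). HOXA6, its neighbour, had 1.40 and 1.97 FPKM in SW480 shCYP1B1, against 5.82 and 5.82 in SW480 shNT (-1.74 ± 0.34, adjusted p = 0.00126). The next gene on the other side rose: HOXA9 had 70.5 and 72.4 FPKM in SW480 shCYP1B1, against 47.5 and 48.9 in SW480 shNT (0.61 ± 0.08, adjusted p = 9.85e-05). At the high-numbered end, HOXA13 had 3.26 and 3.38 FPKM in SW480 shCYP1B1, against 1.42 and 1.59 in SW480 shNT (1.18 ± 0.16, adjusted p = 8.71e-05). No library of these 4 genes overlapped between the groups. HOXA3 (-1.12 ± 0.31) and HOXA11 (-0.54 ± 0.16) fell and HOXA10 (0.41 ± 0.12) rose. HOXA3 lost its call without any 1 of the 4 SW480 libraries (adjusted p = 0.0571 and 0.0945 without shNT replicates 1 and 2, 0.0932 and 0.0613 without shCYP1B1 replicates 1 and 2). HOXA11 lost it without shNT replicate 1 or 2 (0.0505 and 0.0746) or shCYP1B1 replicate 2 (0.0858), and HOXA10 without shNT replicate 1 or 2 (0.101 and 0.0590) or shCYP1B1 replicate 1 (0.129). In GENCODE 29, exons of genes on the opposite strand cover 62.5% of the HOXA7 and 39.3% of the HOXA6 exon bases.

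HOXB6 had the clearest rise of the HOXB cluster, with 87.9 and 90.5 FPKM in SW480 shCYP1B1 libraries, against 47.7 and 48.3 in SW480 shNT libraries (0.94 ± 0.07, adjusted p = 2.09e-06). HOXB5 had 22.9 and 26.1 FPKM in SW480 shCYP1B1, against 16.1 and 17.4 in SW480 shNT (0.59 ± 0.12, adjusted p = 0.00178), and HOXB9 had 54.0 and 53.2 in SW480 shCYP1B1, against 38.8 and 41.8 in SW480 shNT (0.46 ± 0.09, adjusted p = 0.00145). The libraries of the groups did not overlap for these genes. HOXB8 (0.43 ± 0.12) and HOXB7 (0.33 ± 0.10) also rose, so that the called genes were the 5 neighbours from HOXB5 to HOXB9. HOXB8 lost its call without shNT replicate 1 or 2 (adjusted p = 0.0537 and 0.104) or shCYP1B1 replicate 2 (0.0951), and HOXB7 without any 1 of the 4 SW480 libraries (0.115 and 0.0961 without shNT replicates 1 and 2, 0.115 and 0.0764 without shCYP1B1 replicates 1 and 2). HOXB2, HOXB3, HOXB4 and HOXB13 were not called (adjusted p from 0.109 to 0.540).

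In HOXC, HOXC10 rose to 34.4 and 34.4 FPKM in SW480 shCYP1B1 libraries, against 24.7 and 21.9 in SW480 shNT libraries (0.61 ± 0.10, adjusted p = 3.65e-04). HOXC6 fell to 8.34 and 7.54 FPKM in SW480 shCYP1B1, against 12.5 and 12.6 in SW480 shNT (-0.62 ± 0.12, adjusted p = 0.00105). Neither gene's groups overlapped. HOXC5, which lies next to HOXC6, fell by 0.49 on the log2 scale, and its call was lost without shNT replicate 1 (log2 fold change -0.30, adjusted p = 0.243), shCYP1B1 replicate 1 (0.0588) or shCYP1B1 replicate 2 (0.166). The other HOXC genes were not called (adjusted p from 0.0684 to 0.580).

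In HOXD, the called rises were HOXD1, HOXD3 and HOXD4 at the low-numbered end, HOXD8 in the middle, and HOXD10. HOXD1 had 1.36 and 1.03 FPKM in SW480 shCYP1B1 libraries, against 0.273 and 0.291 in SW480 shNT libraries (2.12 ± 0.46, adjusted p = 0.00246), and 58.1% of its exon bases overlap exons on the opposite strand. HOXD8 had 3.49 and 3.43 FPKM in SW480 shCYP1B1, against 1.36 and 1.68 in SW480 shNT (1.23 ± 0.27, adjusted p = 0.00265). HOXD4 had 0.362 and 0.361 FPKM in SW480 shCYP1B1, against 0.184 and 0.163 in SW480 shNT (1.10 ± 0.28, adjusted p = 0.00672). The groups did not overlap for these genes, and the SW480 shCYP1B1 levels of HOXD1 and HOXD8, but not of HOXD4, reached above those of both RKO groups. HOXD10 rose to 4.71 and 5.41 FPKM in SW480 shCYP1B1, against 2.36 and 2.77 in SW480 shNT (1.03 ± 0.28, adjusted p = 0.0105), a call lost without shNT replicate 1 (0.0877) or shCYP1B1 replicate 2 (0.109). HOXD3 had 14 and 10 counts in SW480 shCYP1B1, against 0 and 3 in SW480 shNT, a ratio of 8.39 (95% counting interval 2.55 to 43.5, adjusted p = 0.00766). Without shNT replicate 1 its fitted log2 fold change of 2.96 became 2.03 and its call was lost (adjusted p = 0.0513), and without shNT replicate 2 it became 6.62. HOXD9, HOXD11 and HOXD13 were not called. HOXD13 had 0.802 and 0.748 FPKM in SW480 shCYP1B1, against 1.28 and 1.06 in SW480 shNT (adjusted p = 0.133).

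With CYP1B1 overexpressed in RKO, 8 of the 37 HOX genes tested rose and 3 fell, where 13.8% of all genes tested rose and 13.8% fell. All 9 tested HOXB genes were among the 11 called, 6 higher and 3 lower, and the other called genes were HOXA7 and HOXA13. No HOXC or HOXD gene was called by edgeR, at an unadjusted p under 0.05 either, or by DESeq2, while limma on log2(FPKM + 1) called 1 in each lower, HOXC6 and HOXD3. HOXC12, HOXD10, HOXD11 and HOXD13 had at most 1 count in each RKO group, so no fold is given for them. The median log2 fold change over the 33 other HOX genes tested was 0.14, and it was 0.47 in HOXB.

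The HOXB genes changed by position. HOXB2 and HOXB3, at the low-numbered end, fell, HOXB4 to HOXB8 rose, HOXB9 fell, and HOXB13, which lies apart from the rest of the cluster, rose. HOXB13, a gene active in prostate and distal colon, had 6.23 and 8.21 FPKM in RKO CYP1B1 libraries, against 2.83 and 3.53 in RKO control libraries (1.20 ± 0.17, adjusted p = 5.88e-04). HOXB9 had 31.5 and 26.0 FPKM in RKO CYP1B1, against 44.5 and 42.9 in RKO control (-0.59 ± 0.09, adjusted p = 9.35e-04). HOXB3 had 2.21 and 2.17 FPKM in RKO CYP1B1, against 2.89 and 3.35 in RKO control (-0.49 ± 0.09, adjusted p = 0.00232). The groups did not overlap for any of these 3 genes, which were named for their small adjusted p, so this adds no support. HOXB5 had 2.60 and 3.01 FPKM in RKO CYP1B1, against 1.55 and 1.68 in RKO control (0.81 ± 0.16, adjusted p = 0.00308), and its adjusted p was 0.0683 when the RKO libraries were fitted alone.

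Each of the other HOXB calls in RKO was lost when at least 1 library was left out. The fold change itself could move little, as for HOXB6 (0.34 to 0.30 without RKO control replicate 1). HOXB7 had 15.0 and 18.7 FPKM in RKO CYP1B1 libraries, against 11.7 and 12.8 in RKO control libraries (0.47 ± 0.11, adjusted p = 0.00874). It moved to 0.30 without RKO CYP1B1 replicate 2 and lost its call without RKO control replicate 1 (0.0751). HOXB6 had 9.12 and 8.29 FPKM in RKO CYP1B1, against 6.73 and 7.21 in RKO control (0.34 ± 0.08, adjusted p = 0.0105), a call lost without RKO control replicate 1 (0.0842). HOXB8 had 2.64 and 2.87 FPKM in RKO CYP1B1, against 2.33 and 1.57 in RKO control (0.52 ± 0.15, adjusted p = 0.0264). Without RKO control replicate 1 its log2 fold change was 0.84, without RKO control replicate 2 it was 0.25 and not called (0.218), and without SW480 shNT replicate 1 or 2 its adjusted p was 0.0504 and 0.0505. HOXB2 had 20.8 and 17.3 FPKM in RKO CYP1B1, against 26.8 and 24.7 in RKO control (-0.42 ± 0.13, adjusted p = 0.0327), a call lost without RKO control replicate 1 (0.199), RKO control replicate 2 (0.0856) or RKO CYP1B1 replicate 2 (0.0702). HOXB4 had 9.04 and 11.99 FPKM in RKO CYP1B1, against 8.23 and 7.04 in RKO control (0.48 ± 0.15, adjusted p = 0.0388). Its call was lost without RKO control replicate 1 (0.0638) or 2 (0.262), RKO CYP1B1 replicate 2 (log2 fold change 0.26, adjusted p = 0.180), SW480 shNT replicate 1 or 2 (0.0603 and 0.0612) or SW480 shCYP1B1 replicate 1 or 2 (0.0649 and 0.0640). With the RKO libraries fitted alone, none of HOXB2, HOXB4, HOXB6, HOXB7 and HOXB8 was called (adjusted p from 0.0534 to 0.146).

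In HOXA, HOXA7 had 18.5 and 20.9 FPKM in RKO CYP1B1 libraries, against 15.3 and 14.3 in RKO control libraries (0.43 ± 0.10, adjusted p = 0.00835), a call lost without RKO control replicate 2 (0.0863). HOXA13 had 1.64 and 1.77 FPKM in RKO CYP1B1, against 1.21 and 1.26 in RKO control (0.48 ± 0.16, adjusted p = 0.0447), and its call was lost without RKO control replicate 1 or 2 (0.149 and 0.136), RKO CYP1B1 replicate 2 (0.107) or any 1 of the SW480 libraries (0.0599 and 0.0604 without shNT replicates 1 and 2, 0.0719 and 0.0735 without shCYP1B1 replicates 1 and 2). It was not called with the RKO libraries fitted alone (0.112), with DESeq2 (0.0512) or with library size scaling (0.0536). HOXA3, which differed 3.62-fold between the RKO CYP1B1 replicates, had 0.0963 and 0.348 FPKM in RKO CYP1B1, against 0.271 and 0.271 in RKO control (adjusted p = 0.684). HOXA9 and the other HOXA genes were not called (adjusted p from 0.112 to 0.957). HOXC genes had adjusted p from 0.134 to 0.812, and HOXC10, their highest member, had 10.8 and 9.84 FPKM in RKO CYP1B1, against 8.87 and 9.67 in RKO control.

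**Figure D5:**
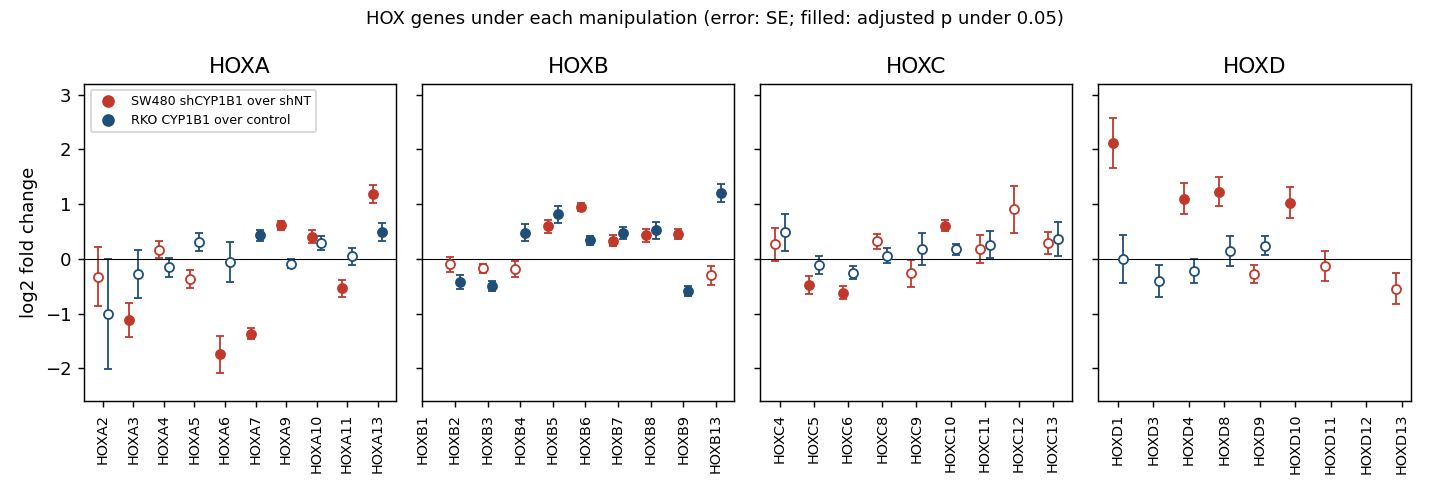
Log2 fold change ± SE of the HOX genes for SW480 shCYP1B1 over shNT (red) and RKO CYP1B1 over control (blue). Filled points passed an adjusted p of 0.05, and genes with 3 or fewer counts in a group are left out. HOXA7 lies at -1.37 in SW480 and 0.43 in RKO, while HOXB5 to HOXB8 lie above 0 in both.

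Set side by side, 7 HOX genes were called in both manipulations, although CYP1B1 was lowered in SW480 and raised in RKO. HOXA13, HOXB5, HOXB6, HOXB7 and HOXB8 rose in both, and HOXA7 and HOXB9 went in opposite directions. Over all genes tested, 9.11% were called in both with the same sign and 6.59% with opposite signs. The difference between the responses, SW480 minus RKO, was tested in the same fit and was called for 15 HOX genes, 10 higher and 5 lower, where 18.3% and 19.2% of all genes tested were called. HOXA7 differed by -1.80 ± 0.14 (adjusted p = 8.18e-06), HOXB13 by -1.503 ± 0.24 and HOXB9 by 1.04 ± 0.13. The responses of HOXB5, HOXB7 and HOXB8 were not called different (adjusted p from 0.410 to 0.777), and the difference for HOXB5 was -0.22 ± 0.20.

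Of 11 tested genes of PBX, MEIS, PKNOX and TGIF proteins and the PBX partner PBXIP1, 6 rose and 2 fell under the CYP1B1 hairpin, while 0 rose and 1 fell in RKO (3 rose at an unadjusted p under 0.05, and 0 with DESeq2 or limma). Of all genes tested, 25.3% rose and 25.3% fell in SW480, and 13.8% rose and 13.8% fell in RKO. PBX3 had 6.23 and 5.33 FPKM in SW480 shCYP1B1 libraries, against 3.09 and 3.78 in SW480 shNT libraries (0.80 ± 0.14, adjusted p = 6.08e-04), and PBX2 rose by 0.48 ± 0.07. PBXIP1, which binds PBX proteins, rose by 1.05 ± 0.13. MEIS2, a cofactor of the same class, had 0.772 and 0.580 FPKM in SW480 shCYP1B1, against 1.43 and 1.28 in SW480 shNT (-0.96 ± 0.20, adjusted p = 0.00222). The call in RKO was TGIF1, a repressor of that class (-0.41 ± 0.08). Between the lines 5 were higher and 5 lower in SW480 shNT, where 41.2% of all genes tested were higher and 35.6% lower. MEIS1, the partner of HOXA9 in leukaemia, had 0.916 and 1.04 FPKM in SW480 shNT libraries and was listed at 0 in all RKO libraries, whereas PBX3 was lower in SW480 shNT (3.09 and 3.78 FPKM, against 11.4 and 12.7 in RKO control).

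Of 34 Polycomb genes tested, 10 rose and 10 fell in SW480 and 5 rose and 8 fell in RKO. In SW480 that was 29.4% in each direction, near the 25.3% of all genes tested, and in RKO 14.7% and 23.5%, where all genes had 13.8% in each direction. RYBP, a subunit of variant PRC1, had 23.3 and 24.8 FPKM in SW480 shCYP1B1 libraries, against 13.1 and 12.7 in SW480 shNT libraries (0.94 ± 0.08), and 10.6 and 9.23 FPKM in RKO CYP1B1 libraries, against 14.7 and 15.6 in RKO control libraries (-0.60 ± 0.09). SCMH1, a PRC1 partner, fell in both, by 1.41 in SW480 and by 0.66 in RKO on the log2 scale. EZH2, which methylates histone H3 in PRC2, fell by 0.62 in RKO, and CBX2, a chromatin-binding subunit of PRC1, rose by 0.99 ± 0.12. In SW480 PHF1 (1.36 ± 0.10) and JARID2 (1.19 ± 0.12), both PRC2 partners, rose. Of 25 Trithorax and MLL complex genes tested, 5 rose and 5 fell in SW480 (20% in each direction, against 25.3% of all genes) and 4 rose and 7 fell in RKO (16% and 28%, against 13.8% in each direction). KDM6B, a demethylase of the Polycomb mark, had 11.1 and 11.1 FPKM in SW480 shCYP1B1, against 8.19 and 8.77 in SW480 shNT (0.43 ± 0.07), and 6.51 and 6.71 in RKO CYP1B1, against 14.9 and 14.3 in RKO control (-1.12 ± 0.07). KDM6A, a related enzyme, fell by 0.81 in RKO.

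Of 15 tested genes of the retinoid pathway, 6 rose and 1 fell in SW480, and 3 rose and 1 fell in RKO. In SW480 that was 40% and 6.67%, where all genes tested had 25.3% in each direction. In RKO it was 20% and 6.67%, where all genes had 13.8% in each direction. With both directions together, 46.7% were called in SW480, against 50.6% of all genes, and 26.7% in RKO, against 27.6%. RARA, a retinoic acid receptor, had 24.4 and 23.9 FPKM in SW480 shCYP1B1 libraries, against 12.9 and 12.5 in SW480 shNT libraries (0.97 ± 0.09), and RARG rose in both lines (0.49 ± 0.09 in SW480 and 0.51 ± 0.09 in RKO). Between the lines 10 were higher and 3 lower in SW480 shNT (66.7% and 20%, against 41.2% and 35.6% of all genes tested). ALDH1A3, which makes retinoic acid, had 71.2 and 72.1 FPKM in SW480 shNT, against 0.640 and 0.305 in RKO control (7.29 ± 0.18).

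Of the CDX and ParaHox genes, 3 were tested, of which 0 rose and 2, CDX2 and GSX1, fell in SW480. That was 66.7% lower, where 25.3% of all genes tested fell, and DESeq2 called 1 of the 2. GSX1 (-1.64) lost its call without any 1 of the SW480 libraries. In RKO 0 were called by edgeR, 0 at an unadjusted p under 0.05 and 0 by DESeq2 or limma, where 13.8% of all genes rose and 13.8% fell. CDX2, which specifies the intestinal epithelium, had 9.57 and 9.56 FPKM in SW480 shCYP1B1 libraries, against 18.6 and 17.3 in SW480 shNT libraries (-0.86 ± 0.09, adjusted p = 1.23e-05). Its RKO levels lay between 5.30 and 5.76 FPKM. Markers of the epithelium moved in both directions in SW480, with 2 higher and 3 lower of 7 tested. That was 28.6% and 42.9%, against 25.3% of all genes in each direction. EPCAM had 14.1 and 14.6 FPKM in SW480 shCYP1B1, against 84.0 and 84.7 in SW480 shNT (-2.52 ± 0.09). KRT18 (0.27) and KRT8 (0.26) rose on the log2 scale, calls that were lost without SW480 shNT replicate 2. The summed FPKM of the 10 epithelial markers was 3087 and 3122 in SW480 shCYP1B1, against 2790 and 2697 in SW480 shNT. The 12 markers of other cell types summed to 520 and 513 FPKM in SW480 shCYP1B1 and to 313 and 296 in SW480 shNT, nearly all of it VIM. The part of these shifts in the HOX values was not tested.

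Of 26 tested genes that flank the clusters, 5 rose and 8 fell in SW480 (19.2% and 30.8%, against 25.3% of all genes in each direction) and 3 rose and 5 fell in RKO (11.5% and 19.2%, against 13.8% in each direction), shares near those of all genes. Between the lines 14 were higher and 3 lower in SW480 shNT, where all genes had 41.2% and 35.6%. SKAP1, an adaptor of T-cell signalling that lies near the low-numbered end of HOXB, had 49.1 and 49.9 FPKM in SW480 shCYP1B1 libraries, against 22.4 and 20.9 in SW480 shNT libraries (1.24 ± 0.12, adjusted p = 9.62e-06), and 0.0261 and 0.0249 FPKM in RKO control. CALCOCO1, near HOXC, rose by 0.79 ± 0.08 in SW480. NFE2L1, a stress-response transcription factor near HOXB, had 58.0 and 65.7 FPKM in RKO CYP1B1, against 95.2 and 93.2 in RKO control (-0.59 ± 0.07). ATP5MC3, an ATP synthase subunit near HOXD, rose in RKO (0.84 ± 0.07) and fell in SW480 by 0.46 on the log2 scale.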

How the data were processed

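The libraries were made with a stranded mRNA kit from total RNA, per the labels' protocols. The files the authors deposited hold 1 whole-number read count and 1 FPKM value for each gene and library. Per the submitters' processing notes the build was GRCh38.p13. The aligner, counter, annotation and strand setting were not given in the sources used here. Reads of overlapping and antisense genes therefore cannot be told apart, and 18 HOX genes overlap exons of genes on the same strand and 19 on the opposite strand in GENCODE 29, which gave positions. The library totals of 31550173 to 34921085 counts set the precision, and intervals and floors cover counting error only.

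Tests started from the deposited counts. Genes were kept with filterByExpr (minimum count 10, minimum total 15), scaled with TMM and fitted in edgeR 4.0.16 (R 4.3.3) over all 8 libraries with 1 coefficient per group. Contrasts were tested with the quasi-likelihood test and adjusted with Benjamini-Hochberg over 14157 genes, threshold 0.05. SE is the size of the log2 fold change divided by the square root of F. The fit was also run on simulated counts, with the spread taken from these data, few changed genes and no difference between the lines. Such a run cannot show how the fit does where as many genes differ as here. Sums over members are of the deposited FPKM. Count ratios carry exact intervals of 95%, with a floor of 3 counts over a group.

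The genes named were CYP1B1, up to 10 HOX members with the smallest adjusted p in each manipulation and between the lines, members called in both manipulations, the 3 highest of each cluster in each line's controls, and up to 4 members per other list. Other HOX members are named to account for the rest. Some results are not reported here, although counts and sums include them. The members and lists were chosen with earlier results of these data known. Of 19 noncoding RNAs of the clusters listed, none was analysed here. Alternatives were RLE or library size scaling, other count filters, DESeq2 1.42.0, limma 3.58.1 on log2(FPKM + 1) or log2(FPKM + 0.1), a replicate block, each line fitted alone, both groups of each line averaged, cluster sums without their highest member, levels per GENCODE exon bases (added after seeing the data), and each library left out in turn.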

Additional observations from a re-analysis of the deposited data

Results flagged for a closer look

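For 15 of the 37 HOX genes tested the effect of the CYP1B1 hairpin in SW480 differed from that of CYP1B1 overexpression in RKO. That was 40.5%, near the 37.5% of all genes tested. The test was of the difference itself (SW480 shCYP1B1 against shNT minus RKO CYP1B1 against control, edgeR, adjusted p under 0.05). CYP1B1 was lowered in SW480 and raised in RKO, so line and kind of manipulation cannot be told apart. A gene that followed CYP1B1 in the same sense in both lines also differs by this test. HOXB9, for example, fell with overexpression in RKO and rose under the hairpin in SW480. The difference is in log2 units. It was negative for HOXA7 (-1.80), HOXA6 (-1.68), HOXB13 (-1.503), HOXA5 (-0.67) and HOXB4 (-0.66). It was positive for HOXD3 (3.37), HOXD1 (2.13), HOXD4 (1.32), HOXD8 (1.09), HOXB9 (1.04), HOXA9 (0.70), HOXA13 (0.70), HOXB6 (0.60) and HOXC10 (0.43). The HOXD3 value rests on 3 counts in SW480 shNT and became 7.02 without SW480 shNT replicate 2. The calls for HOXA7, HOXB9, HOXB13, HOXA9, HOXB6 and HOXD3 held under every alternative run, and the other 9 were lost when at least 1 library was left out.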

How the results depend on the processing

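Over all alternatives, 26 of 32 calls between the lines, 13 of 21 in SW480, 3 of 11 in RKO and 6 of 15 differences of response held. In RKO, 11 HOX genes were called, 4 with the RKO libraries fitted alone and 6 to 13 with a library left out, which gave 5 to 9 of the 9 HOXB genes (3 fitted alone). Over all genes, 3907 were called in RKO, 2294 with the line alone and 1784 to 5629 with a library left out. With a library left out, SW480 gave 13 to 25 HOX calls in place of 21, HOXA 5 to 9 in place of 8, HOXD 3 to 5 in place of 5, and the difference of responses 7 to 19 in place of 15. The calls over all genes, 7167 in SW480 and 5312 for the difference, also went both below and above those values in these runs. The swing was thus not confined to HOX genes. The HOXB13 line difference turned to -0.092 with both groups of each line averaged. That average takes in RKO CYP1B1, where HOXB13 was higher than in RKO control (log2 fold change 1.20). It also takes in SW480 shCYP1B1, where HOXB13 differed from SW480 shNT by -0.30 and was not called. On log2(FPKM + 1), where the pseudocount exceeds its level, HOXD3 moved by 0.077 in SW480 (adjusted p = 0.364). Without the highest member, the sums in SW480 shCYP1B1, SW480 shNT, RKO CYP1B1 and RKO control were 76.2, 97.7, 52.5 and 44.9 FPKM for HOXA, 227, 190, 70.0 and 62.5 for HOXB, 37.9, 43.4, 22.4 and 23.5 for HOXC, and 14.2, 10.3, 5.28 and 5.77 for HOXD. Per GENCODE exon bases, an alternative chosen after seeing the data, they were 119, 122, 77.4 and 73.2 for HOXA, 330, 249, 88.2 and 96.0 for HOXB, 64.7, 58.2, 28.9 and 28.5 for HOXC, and 17.8, 15.9, 13.9 and 14.6 for HOXD, all members included. Replicate numbers did not pair the libraries (correlation of deviations -0.00532 in RKO and -0.0115 in SW480), and with a replicate block 9, 21, 31 and 13 HOX genes were called in RKO, in SW480, between the lines and in the difference (all genes 3653, 6891, 10761 and 5068). Depth limits HOXB1, HOXC12 in RKO, HOXD3 in SW480 and HOXD10 to HOXD13 in RKO.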
